A study of Mus musculus with 16 samples.

Results

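B cell follicles are rounded clusters of B lymphocytes that, grouped under a specialised epithelium, form the Peyer's patches of the ileum. The 8 genes described here mark their parts: Ms4a1, Cd79a, Cd79b, Cr2, Fcer2a and Cxcr5 for the B cells, Cxcl13 for the stroma that holds the follicle together, and Gp2 for the M cells of the overlying epithelium. They were selected by name out of 23299 genes with values, and their transcripts were summed per gene. RNA from terminal ileum of C57BL/6 mice was sequenced after 10 weeks of feeding on an Ion Proton instrument. Wild-type (Tas1r3+/+) littermates and mice that lack the taste receptor subunit TAS1R3 in the whole body (Tas1r3-/-, the Tas1r3tm1Csz allele backcrossed to C57BL/6) received either a normal diet with plain water (ND) or a Western diet (WD) of pellets with 60% fat and a 30% sucrose drink. Mice were 5 to 6 weeks old when they were assigned to groups. No group carried a further allele, and ND-fed Tas1r3+/+ mice served as the reference for both diet and genotype.

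The labels describe 16 mice, with 2 males and 2 females per group, of which 13 libraries were used. The study's methods name a larger number of mice per group for sequencing, and the labels were followed here. For the ND-fed knockouts, both columns labelled female equalled weighted means of the 2 male columns and were left out, so that this group held males alone. For the WD-fed knockouts, 1 of the 2 columns labelled female was related to the other, and their average was taken as 1 library. Deposited RPKM of Tas1r3 itself lay between 1.80 and 6.27 in Tas1r3+/+ libraries and was at most 0.00452 in Tas1r3-/- libraries, as their labels state. The values imply depths of 7003820 to 12384383 reads, and levels below are scaled RPKM, that is, reads per kilobase of transcript and per unit of library size after the libraries were brought to a common scale. In bulk tissue, fewer cells of a type and less RNA per cell cannot be told apart.

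Follicular B cells carry an antigen receptor whose signal passes through the CD79A and CD79B chains. They reach the follicle because the receptor CXCR5 on their surface follows the chemokine CXCL13, which follicular dendritic cells and other stromal cells secrete. The stroma itself depends on lymphotoxin from B cells, so that both sides of the follicle sustain each other. A Peyer's patch occupies a small area of the ileal wall, and a piece of tissue can include a patch, an isolated follicle or neither. GP2 is a bacterial receptor on M cells, which pass particles from the lumen to the follicle beneath, and is also a secretory protein of the pancreatic acinar cell.

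RefSeq promoter sequences (GRCm38.p6) were matched for 5 of the 8 genes, namely Cd79a, Cr2, Fcer2a, Cxcl13 and Gp2. The 250 bases before the start site are shown for 4 of them, 1 for each source of transcript and a second B cell gene. They were chosen because the B cell genes and Cxcl13 varied together among libraries. The correlations of Gp2 with them were lower, a difference that was not tested. Capitals mark the matches found among 4 motifs searched on both strands of the windows, which also take in 50 bases after the start.
Cd79a, chr7:24897247-24897496, plus strand: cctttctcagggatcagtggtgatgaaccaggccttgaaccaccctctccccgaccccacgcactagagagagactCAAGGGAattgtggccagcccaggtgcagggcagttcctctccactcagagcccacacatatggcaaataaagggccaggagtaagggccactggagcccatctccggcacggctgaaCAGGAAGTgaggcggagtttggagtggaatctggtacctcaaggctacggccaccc
Fcer2a, chr8:3694175-3694424, minus strand: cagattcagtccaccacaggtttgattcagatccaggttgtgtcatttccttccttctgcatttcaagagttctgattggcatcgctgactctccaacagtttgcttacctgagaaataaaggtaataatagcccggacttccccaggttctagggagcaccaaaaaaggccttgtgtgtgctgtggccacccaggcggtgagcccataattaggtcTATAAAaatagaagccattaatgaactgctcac
Cxcl13, chr5:95956689-95956938, plus strand: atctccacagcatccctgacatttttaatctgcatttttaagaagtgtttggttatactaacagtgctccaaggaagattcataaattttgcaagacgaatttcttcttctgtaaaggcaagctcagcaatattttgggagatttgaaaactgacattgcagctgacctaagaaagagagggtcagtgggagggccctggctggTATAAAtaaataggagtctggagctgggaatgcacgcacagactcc
Gp2, chr7:119459273-119459522, minus strand: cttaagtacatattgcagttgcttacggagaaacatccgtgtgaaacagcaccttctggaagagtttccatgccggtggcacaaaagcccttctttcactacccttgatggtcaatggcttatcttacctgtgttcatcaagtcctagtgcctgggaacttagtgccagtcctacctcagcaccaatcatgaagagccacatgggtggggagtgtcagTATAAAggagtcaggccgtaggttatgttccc
The RefSeq start of Cd79a lies 116 bases downstream of that of its quantified transcript, and those of the other 3 lie 1 to 12 bases away.

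The Cd79a window held CAAGGGA at position -174 from the start, letters of an early B cell factor (EBF) site that 5.06% of 32851 RefSeq promoters contained. It also held CAGGAAGT, letters of an Ets factor site, at position -56, and 3.33% of promoters contained that motif. The CAGGAAGT match lies upstream of the RefSeq start but downstream of the start of the quantified Cd79a transcript. TATAAA, the TATA box, stood at position -33 in Fcer2a, -46 in Cxcl13 and -32 in Gp2 and was found in 13.6% of promoters. The octamer ATGCAAAT, bound by POU2F2, was found in 1.74% of promoters and had no match in the 7 windows of the 5 genes. No motif searched was shared by Cd79a with Fcer2a or Cxcl13.

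The B cell antigen receptor genes were the most abundant of the 8. Cd79a (chromosome 7, 24897381 to 24902197, GRCm38) averaged 9.58 scaled RPKM over the 13 libraries and Cd79b (chromosome 11, 106311341 to 106314762) averaged 8.43. Cxcl13 (chromosome 5, 95956951 to 95961068) followed with 4.66. The B cell surface genes Ms4a1, Cxcr5 and Fcer2a lay close together at 1.582, 1.498 and 1.403, with ranges over libraries that overlapped almost entirely. Gp2 averaged 0.477 and Cr2 0.367, and both stayed below 1.4 scaled RPKM in every library.

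Cd79a encodes the receptor's alpha signalling chain. In ND-fed Tas1r3+/+ mice its level was 3.04 in male 1, 5.17 in male 2, 25.65 in female 1 and 4.16 in female 2. In ND-fed Tas1r3-/- males it was 6.60 and 8.04. Female 1 of the ND-fed Tas1r3+/+ group thus stood far above its group, and the remaining ND-fed libraries of both genotypes lay between 3.04 and 8.04. In WD-fed Tas1r3+/+ mice Cd79a was 9.98, 6.996, 8.24 and 12.83 in male 1, male 2, female 1 and female 2. In WD-fed Tas1r3-/- mice it was 18.45 in male 1, 5.63 in male 2 and 9.71 in the female. Each WD-fed Tas1r3+/+ library exceeded the 3 lower ND-fed libraries of its genotype, while female 1 on ND exceeded all of them.

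Cd79b encodes the partner chain of CD79A. It read 1.654, 6.2, 22.88 and 3.96 scaled RPKM in the ND-fed Tas1r3+/+ libraries, in the order male 1, male 2, female 1, female 2, and 4.89 and 3.84 in the ND-fed Tas1r3-/- males. The WD-fed Tas1r3+/+ libraries gave 7.54, 7.27, 7.40 and 13.27 in the same order, and the WD-fed Tas1r3-/- libraries 17.27, 4.32 and 9.14. The pattern resembled that of Cd79a, with the highest value again in ND-fed female 1. Within libraries, the ratio of Cd79b to Cd79a lay between 0.477 and 1.20 with a median of 0.899, although each gene alone ranged 8.45-fold (Cd79a) and 13.8-fold (Cd79b) from the lowest to the highest library.

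Ms4a1 (chromosome 19, 11249675 to 11266241) encodes CD20, a surface protein of mature B cells that plasma cells have lost. Its levels were 0.153, 0.198, 2.66 and 0.556 in ND-fed Tas1r3+/+ male 1, male 2, female 1 and female 2, and 0.112 and 0.25 in the ND-fed Tas1r3-/- males. They were 1.51, 1.55, 0.844 and 5.56 in the WD-fed Tas1r3+/+ libraries and 3.03, 0.755 and 3.40 in the WD-fed Tas1r3-/- libraries. Every WD-fed library lay above 5 of the 6 ND-fed libraries, the exception being ND-fed female 1. The ratio of Cd79a to Ms4a1 was not constant, with 7.47 to 26.1 in ND-fed Tas1r3+/+, 32.2 and 59.1 in ND-fed Tas1r3-/-, 2.31 to 9.76 in WD-fed Tas1r3+/+ and 2.86 to 7.46 in WD-fed Tas1r3-/- mice. The ND-fed Tas1r3-/- ratios rest on 4 and 7 implied reads of Ms4a1. Cd79a is also transcribed in plasma cells. Of 8 plasma cell markers, 5 had a fitted genotype difference above 0 on ND (51.4% of all genes), up to 1.33 on the log2 scale for Igha, the IgA heavy chain. The other 3 were fitted lower, namely Sdc1 (-0.65), Prdm1 (-0.41) and Xbp1 (-0.37). Summed over 8 of 8 plasma cell markers, none of them at 0, the level was 1912 to 5131 in ND-fed Tas1r3+/+, 6679 to 8246 in ND-fed Tas1r3-/-, 3539 to 7755 in WD-fed Tas1r3+/+ and 2491 to 10006 in WD-fed Tas1r3-/- libraries. That sum is largely Igha, at 6233 and 7634 in the ND-fed Tas1r3-/- libraries. The part of plasma cells in the Cd79a values was not tested.

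Fcer2a (chromosome 8, 3681737 to 3694175) encodes CD23, the low-affinity IgE receptor of follicular B cells. ND-fed Tas1r3+/+ libraries gave 0.210, 0.684, 4.07 and 0.505 in male 1, male 2, female 1 and female 2, and the ND-fed Tas1r3-/- males 0.192 and 0.409. WD-fed Tas1r3+/+ libraries gave 1.07, 1.46, 0.499 and 2.64, and WD-fed Tas1r3-/- libraries 3.58, 0.768 and 2.15. The highest Fcer2a level was again that of ND-fed female 1, and both diets overlapped in Tas1r3+/+ mice even without it.

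Cxcr5 (chromosome 9, 44511787 to 44561877) encodes the follicle homing receptor. It stood at 0.243, 0.403, 5.15 and 1.26 in ND-fed Tas1r3+/+ male 1, male 2, female 1 and female 2. The ND-fed Tas1r3-/- males had 0.0600 and 0.0232, which correspond to 1.8 and 0.6 reads and lie below the level of 3 reads that a count of 0 allows. WD-fed Tas1r3+/+ libraries read 0.943, 1.01, 1.44 and 3.52, and WD-fed Tas1r3-/- libraries 2.09, 0.362 and 2.97. Both ND-fed Tas1r3-/- libraries were thus the lowest of all 13, at a depth where the size of the difference is poorly fixed.

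Cr2 (chromosome 1, 195136811 to 195176716) encodes complement receptors CD21 and CD35 of mature B cells and follicular dendritic cells. It was the scarcest of the 8 and did not pass the filter, which asked for 1 deposited RPKM, before scaling, in at least 2 libraries and which it reached in ND-fed female 1 alone, so that 7 of the 8 genes were tested. It read 0.0180, 0.116, 1.11 and 0.144 in ND-fed Tas1r3+/+ mice, 0.0696 and 0.0293 in ND-fed Tas1r3-/- mice, 0.304, 0.184, 0.0585 and 1.32 in WD-fed Tas1r3+/+ mice, and 0.475, 0.236 and 0.694 in WD-fed Tas1r3-/- mice. ND-fed female 1 and WD-fed female 2 of the Tas1r3+/+ genotype were the only libraries above 1 after scaling, and the lowest library had 1.2 reads.

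Cxcl13 encodes the chemokine ligand of CXCR5. Its levels were 0.655 and 0.634 in the ND-fed Tas1r3+/+ males, 4.23 and 3.03 in the females, and 3.06 and 2.75 in the ND-fed Tas1r3-/- males. WD-fed Tas1r3+/+ males had 4.57 and 2.96 and females 8.22 and 9.95, while WD-fed Tas1r3-/- mice had 12.2, 3.495 and 4.79. Unlike the B cell genes, Cxcl13 was highest in WD-fed Tas1r3-/- male 1, ND-fed female 1 ranked 6 of 13 for it, and the 2 ND-fed Tas1r3+/+ males were lowest.

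Gp2 (chromosome 7, 119442537 to 119459285) was low everywhere, at 1.9 to 34 implied reads per library. It passed the filter through 2 libraries, both females of the ND-fed Tas1r3+/+ group, so that its differences from that group are given as a description. ND-fed Tas1r3+/+ libraries read 0.346, 0.128, 1.35 and 0.840 in male 1, male 2, female 1 and female 2, and ND-fed Tas1r3-/- libraries 0.180 and 0.214. WD-fed Tas1r3+/+ libraries read 0.394, 0.912, 0.374 and 0.661, and WD-fed Tas1r3-/- libraries 0.293, 0.301 and 0.201. All 5 Tas1r3-/- libraries lay at or below 0.301, below every WD-fed Tas1r3+/+ library. The acinar gene Ctrb1, chymotrypsinogen, read 7.30 in ND-fed female 1, the library with the highest Gp2, and 2.75 in WD-fed female 2, against 0.36 or less in the other 11 libraries. Over the 4 of 7 acinar genes with values, the summed level was 5.58 to 24.7 in ND-fed Tas1r3+/+, 5.82 to 12.8 in ND-fed Tas1r3-/-, 6.17 to 13.6 in WD-fed Tas1r3+/+ and 6.2 to 10.2 in WD-fed Tas1r3-/- libraries, and Cpa1, Ctrb1 and Prss2 had medians under 0.1. The part of pancreatic tissue in the Gp2 values was not tested.

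**Figure D1:**
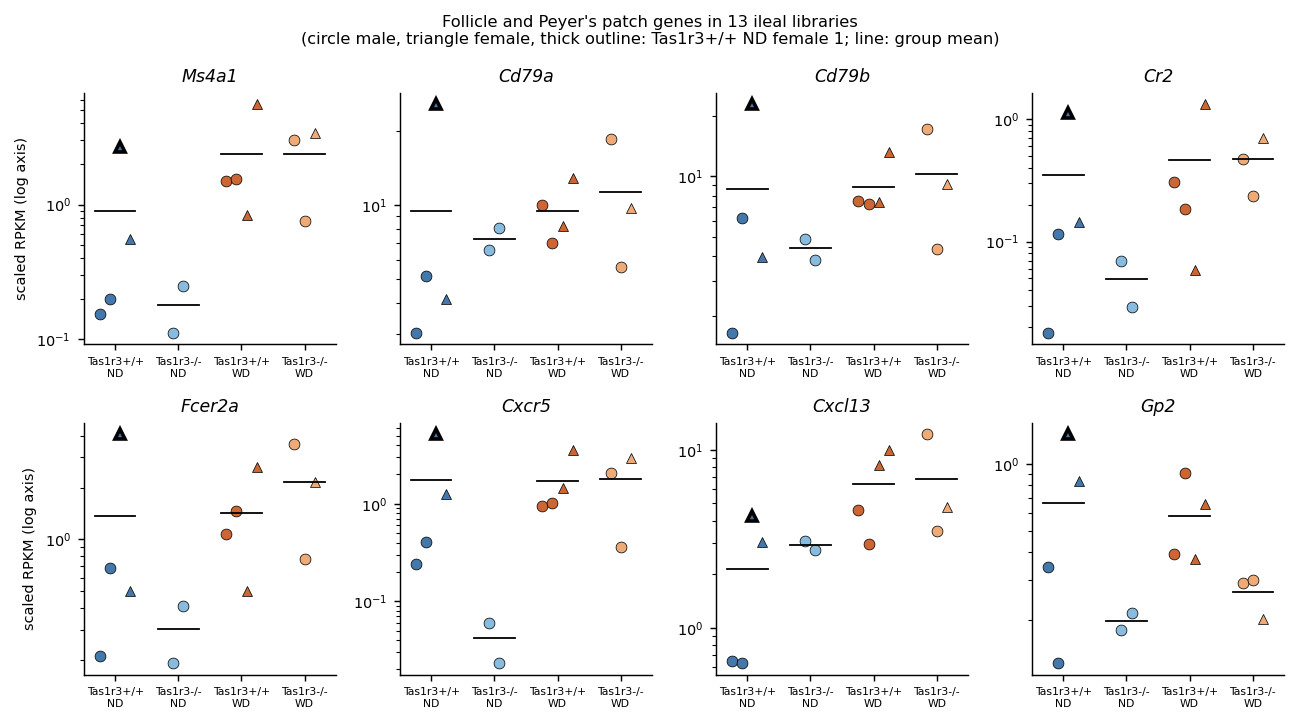
Scaled RPKM of the 8 genes (logarithmic axis) in each of the 13 libraries by genotype and diet, with circles for males, triangles for females and a line at the group mean. The thick triangle, ND-fed Tas1r3+/+ female 1, is the highest point of its group in all 8 panels, at 2.94 to 11.99 times the mean of the other 3 libraries.

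The spread between libraries of 1 group was wide for the B cell genes and for Cxcl13. The within-group SD on the log2 scale was 0.994 for Cxcr5, 0.974 for Cd79b, 0.919 for Ms4a1, 0.888 for Fcer2a, 0.868 for Cd79a and 0.856 for Cxcl13. It was 0.446 for Gp2. The median over the 7 tested genes was 0.888, against 0.402 over all 19042 genes tested, of which 90% lay below 0.78. Counting error alone would give SDs of 0.127 to 0.216, so that the observed SDs were 2.07 times (Gp2) to 6.86 times (Cd79a) as large.

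ND-fed Tas1r3+/+ female 1 carried much of this spread. Its level relative to the mean of the other 3 libraries of its group was 11.99 for Cr2, 8.78 for Ms4a1, 8.74 for Fcer2a, 8.13 for Cxcr5, 6.23 for Cd79a and 5.81 for Cd79b, but 3.09 for Gp2 and 2.94 for Cxcl13. It ranked first of 13 for 5 of the 8 genes. WD-fed Tas1r3+/+ female 2 ranked among the top 4 for all 8 genes and first for Ms4a1 and Cr2, and WD-fed Tas1r3-/- male 1 ranked among the top 4 for 7. At the other end, ND-fed Tas1r3+/+ male 1 and ND-fed Tas1r3-/- male 2 were each among the lowest 4 for 7 genes. Without ND-fed female 1 the median SD was 0.678, against 0.398 over all genes.

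**Figure D2:**
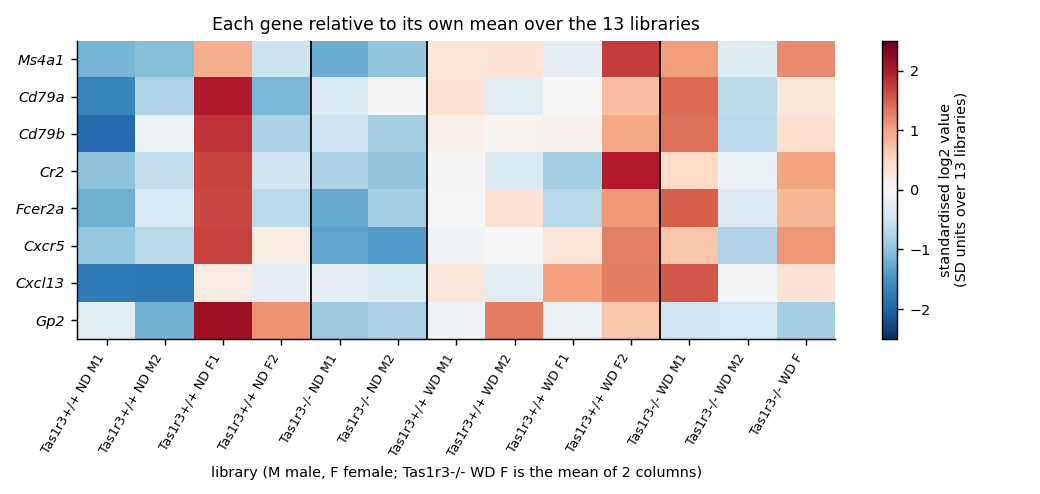
Each gene's log2 level in each library relative to that gene's mean over the 13 libraries, in SD units (red above, blue below). The columns for ND-fed Tas1r3+/+ female 1, WD-fed Tas1r3+/+ female 2 and WD-fed Tas1r3-/- male 1 are red over nearly all rows, and the Gp2 row departs from the rows above it.

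The 6 B cell genes were high in the same libraries. Among their 15 pairs, Pearson's r of the log2 values over 13 libraries ranged from 0.716 to 0.937 with a median of 0.863, and Spearman's rho from 0.681 to 0.918. Permutation tests with Benjamini-Hochberg adjustment over all 28 pairs of the 8 genes called 15 of 15, by r and by rho. For the 2 receptor chains, Cd79a and Cd79b, r was 0.937 (permutation p = 2e-05, adjusted 0.00028) and rho 0.896 (permutation p = 0.00014, adjusted 0.00131). For Ms4a1 and Fcer2a, r was 0.911 (permutation p = 4e-05, adjusted 0.00028) and rho 0.896 (permutation p = 9e-05, adjusted 0.00126). After group means were removed, the median r of the 15 pairs was 0.859, so that the shared variation lay within groups as well. It was 0.815 without ND-fed female 1, 0.823 without the 2 libraries farthest from the median of the first gene of each pair, and 0.886 over the 8 males alone.

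Cxcl13 followed the B cell genes less closely, with r of 0.556 to 0.744 over its 6 pairs and a median of 0.651. Of these pairs 5 passed at an adjusted permutation p under 0.05 by r, and 5 by rho. The pair with its receptor gene, Cxcl13 and Cxcr5, had r = 0.613 (permutation p = 0.0251, adjusted 0.037) and rho = 0.692 (permutation p = 0.0112, adjusted 0.0174). Without the 2 libraries farthest from the median of Cxcr5, r was 0.719. Without ND-fed female 1 the median r of the 6 pairs was 0.721.

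Gp2 was paired with the other 7 genes at r of 0.214 to 0.596, with a median of 0.427. Only its pair with Cxcr5 passed by r (r = 0.596, permutation p = 0.0311, adjusted 0.0422), and none passed by rho (for Cxcr5 rho = 0.5, permutation p = 0.0845, adjusted 0.108). Without the 2 farthest libraries the median r was 0.0783 (-0.0873 to 0.578). The r of Gp2 with Cxcr5 was then 0.346, while that of Gp2 with Ms4a1 was 0.578, against 0.427 over all libraries. Without ND-fed female 1 the median r was 0.213. After group means were removed, the median r of the Gp2 pairs was higher, at 0.543 (0.472 to 0.607). Whether the Gp2 correlations were lower than those of the B cell genes was not itself tested.

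Across the 19035 other genes tested, those most like the mean standardised level of the 7 tested genes were found by Pearson's r over the 13 libraries, and 9 of the leading genes are given. Ighd, the IgD heavy chain of naive B cells, came first with r = 0.982. H2-Ob, a class II peptide loading regulator in B cells, had r = 0.977. Ptprcap (0.936), Ighm (0.925), Siglecg (0.921), Cd22 (0.921), Rhoh (0.910), Pou2f2 (0.910) and Stra6 (0.908) were the others. In 8 of these 9 genes the highest library was ND-fed Tas1r3+/+ female 1. Among all 19035 genes the median r was -0.01 and 48 exceeded 0.8. These coefficients describe libraries that share depth and tissue composition, and carry no test.

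Ighd was picked as the gene most like the mean of the 7 tested genes, so its likeness to them follows from that choice. It held 9 to 381 implied reads per library. Ighd read 0.469, 1.28, 15.6 and 2.16 in ND-fed Tas1r3+/+ mice, 1.19 and 0.959 in ND-fed Tas1r3-/- mice, 4.26, 6.34, 2.87 and 9.42 in WD-fed Tas1r3+/+ mice and 11.7, 1.41 and 6.34 in WD-fed Tas1r3-/- mice. It was highest in ND-fed female 1 and lowest in ND-fed Tas1r3+/+ male 1.

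Of the other lists, genes of B cell surface and receptor signalling had a median r of 0.873 with the follicle genes, and 10 of the 14 tested exceeded 0.8. By level the leading genes of that list were Ighm, the IgM heavy chain (mean 29.1 scaled RPKM, r = 0.925), Cd72 (15.9, r = 0.767), the kinase gene Syk (11.4, r = 0.528) and the signalling adaptor gene Blnk (9.42, r = -0.20). B cell transcription factors had a median of 0.735 over 5 genes, with Pou2f2 at 0.910 and Spib, which M cells also express, at 0.808. The follicle and T zone chemokines and receptors had a median of 0.708 over 6 genes, led by the homing receptor Ccr7 at 0.853, followed by Ccr6 at 0.796, Cxcr4 at 0.759 and Ccl21a, the T zone chemokine, at 0.512. Lymphotoxin, BAFF and stromal genes had a median of 0.613 over 8 genes. By level the leading genes of that list were Mfge8 (r = 0.668), Ltbr (r = -0.003), Tnfrsf11a (r = -0.021) and Madcam1 (r = 0.586). Madcam1 is the addressin of Peyer's patch venules and the lamina propria. Ltb, the lymphotoxin beta chain of B cells, had the highest r of the list, 0.739, and was named after its value was seen.

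The remaining lists were less alike. The median r was 0.506 for 6 T cell genes, 0.502 for 4 germinal centre genes, 0.115 for 6 other M cell and follicle-associated epithelium genes, 0.009 for 8 plasma cell genes, 0.132 for 4 macrophage genes and -0.16 for 6 ileal epithelial genes. It was 0.142 for 5 smooth muscle genes, 0.169 for 4 adipocyte genes, 0.413 for 2 acinar genes and 0.149 for 2 erythroid genes. Among the germinal centre genes r was 0.569 for S1pr2, 0.504 for Fas, 0.499 for Bcl6, the master factor of that state, and 0.253 for Rgs13.

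**Figure D3:**
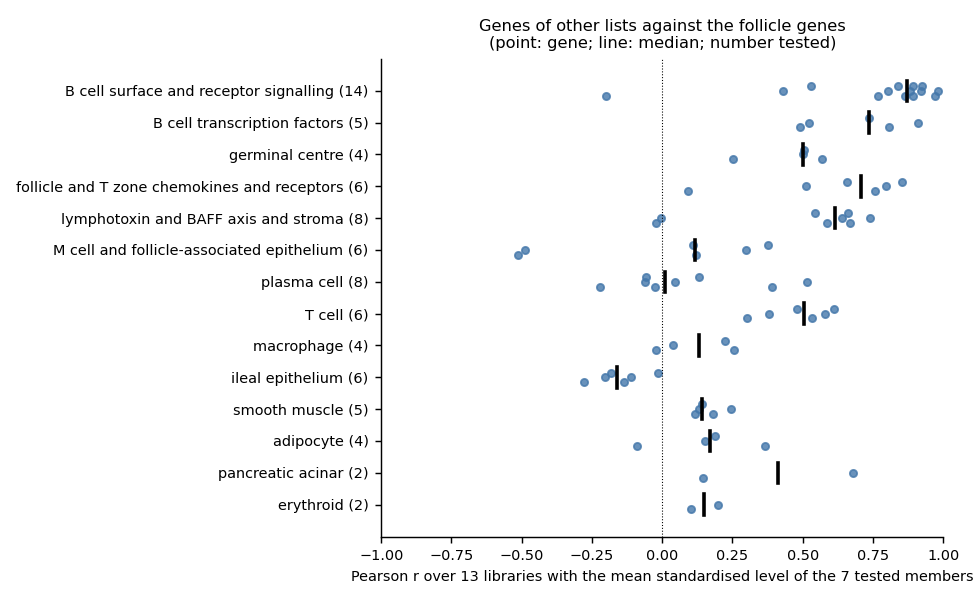
Pearson's r over 13 libraries between each tested gene of 14 lists (points) and the mean standardised level of the 7 tested follicle genes, with a line at each list's median. B cell surface genes gather near 0.873, while plasma cell genes scatter around 0.009 and ileal epithelial genes lie below 0.

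ND-fed female 1 differed from the rest of its group in more than B cell genes. Relative to the mean of the other 3 libraries, the summed level was 5.87 for the 8 follicle genes, 3.91 for B cell surface genes, 3.33 for B cell transcription factors, 2.94 for follicle and T zone chemokines, 1.78 for the lymphotoxin and stromal list, 1.66 for T cells and 1.16 for germinal centre genes. It was 1.01 for plasma cells, 0.743 for the other M cell genes, 1.54 for macrophages and 0.756 for ileal epithelium. Smooth muscle stood at 2.31, erythroid genes at 2.51, acinar genes at 2.84 and adipocyte genes at 1.46. Whether this piece of ileum held a follicle was not tested, since neither the labels nor the methods describe where it was cut.

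With WD, no follicle gene passed the test in Tas1r3+/+ mice, and 6 of 7 were fitted above 0. The comparison asks whether the diet changes these transcripts when TAS1R3 is present. A gene was called at an adjusted p under 0.01 (limma over all 19042 genes, Benjamini-Hochberg) and a fold change of at least 2, and 0 of the 7 tested follicle genes were called, against 0.00525% of all genes. The fitted log2 differences, on the scale of log2(scaled RPKM + 0.5), had a median of 0.48 (all genes 0.02). Of the 7, 6 lay above 0, as did 52% of all genes. Most follicle genes vary together among libraries, so counts of their signs, here and below, are not counts of independent genes. At an unadjusted p under 0.05 there was 1 gene, Cxcl13, where 6.92% of all genes were higher. Its group means were 2.14 ± 1.79 on ND and 6.42 ± 3.22 on WD (SD, n = 4 each), with a log2 difference of 1.55 ± 0.53 (SE) and an adjusted p of 0.201 by limma. WD-fed male 2 lay below both ND-fed females, and no follicle gene was higher on WD without overlap, where 4.19% of all genes were. The two-sided exact permutation test of Cxcl13 gave p = 0.0857, where 0.029 is the smallest possible. On deposited RPKM without scaling, the median of the 7 differences was 0.04 and that of all genes -0.38. Cxcl13 then stood at 1.16 and Ms4a1 at 0.80, whereas Cd79b (0.11), Cd79a (0.04), Fcer2a (0.01), Cxcr5 (-0.01) and Gp2 (-0.27) lay near or below 0, and no gene had an unadjusted p under 0.05.

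The remaining differences in Tas1r3+/+ mice were 1.11 ± 0.58 (SE) for Ms4a1, 0.54 ± 0.60 for Cd79b, 0.48 ± 0.53 for Cd79a, 0.34 ± 0.62 for Cxcr5, 0.33 ± 0.56 for Fcer2a and -0.01 ± 0.33 for Gp2. Group means of Cd79a were 9.502 ± 10.8 on ND and 9.51 ± 2.53 on WD (SD, n = 4 each), because of the single high ND library. Without ND-fed female 1 the ND mean of Cd79a was 4.12 ± 1.07 (SD, n = 3), that of Cd79b 3.94 ± 2.27 and that of Ms4a1 0.303 ± 0.221. In that fit the log2 differences were 1.92 for Cxcl13, 1.62 for Ms4a1, 1.18 for Cd79b and 1.11 for Cd79a, with a median of 1.11 over the 7 genes. That library was left out because it was high for these genes, so no test is read from the fit. Without WD-fed female 2, the highest of its group for most of the genes, the differences were 1.31 for Cxcl13, 0.67 for Ms4a1, 0.34 for Cd79b and 0.33 for Cd79a, with a median of 0.33. Without ND-fed male 1 the median was 0.03, with 0.03 for Cd79b and 0.15 for Cd79a. In males alone the difference of Cxcl13 was 1.87 and that of Ms4a1 1.59.

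In Tas1r3-/- mice, no follicle gene passed the test for diet either. All 7 fitted log2 differences lay above 0, as did 50.4% of all genes, with a median of 0.96 (all genes 0), and 0 of 7 genes were called (0% of all genes). The differences were 1.93 ± 0.74 (SE) for Ms4a1, 1.87 ± 0.80 for Cxcr5 and 1.59 ± 0.72 for Fcer2a, the 3 genes with an unadjusted p under 0.05 (2.74% of all genes, in that direction). Their adjusted p by limma was 0.876 to 0.902. Cd79b had 0.96 ± 0.77, Cxcl13 0.92 ± 0.69, Cd79a 0.44 ± 0.69 and Gp2 0.13 ± 0.43. The diets overlapped for Cd79a, Cd79b and Gp2, and Cd79a in WD-fed male 2 (5.63) lay below both ND-fed males.

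The 3 WD-fed and 2 ND-fed Tas1r3-/- libraries did not overlap for Ms4a1, Cxcr5, Fcer2a and Cxcl13, all higher on WD, where 10.9% of all genes were. The untested Cr2 did not overlap either, at 0.236 to 0.694 against 0.0293 and 0.0696. Each of these 4 tested genes had a two-sided exact permutation p of 0.2 on 3 against 2 libraries, a design whose smallest p is 0.1. For Cxcr5 the pooled reads were 135 on WD and 2 on ND, a ratio of levels of 47.1 with a 95% interval of 12.8 to 393 that covers counting error only (exact binomial). The ND-fed group consisted of 2 males, and in males alone the log2 differences were 1.64 for Ms4a1, 1.47 for Cxcr5 and 1.52 for Fcer2a.

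**Figure D4:**
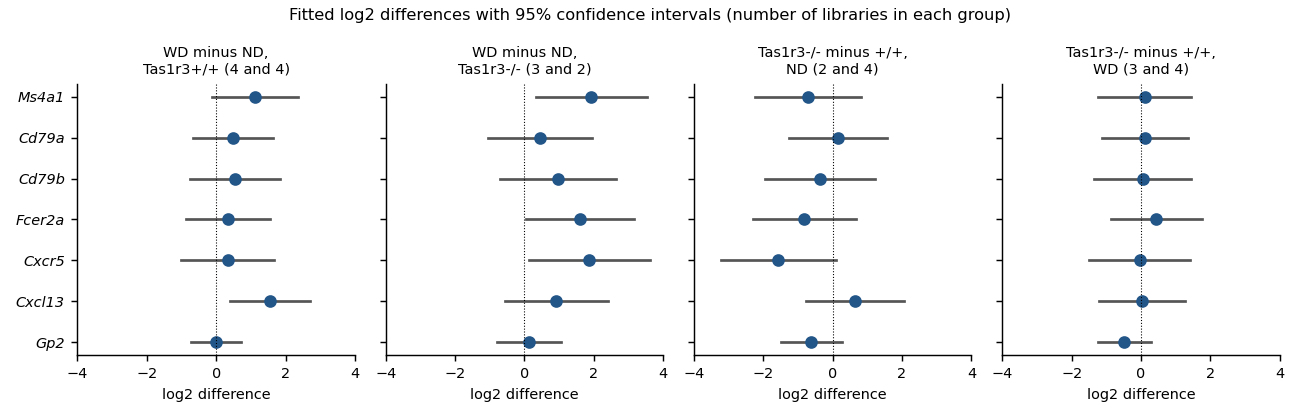
Fitted log2 differences (horizontal axis) of the 7 tested genes with 95% confidence intervals in the 2 diet and 2 genotype comparisons. The intervals of Cxcl13 in Tas1r3+/+ mice and of Ms4a1, Fcer2a and Cxcr5 in Tas1r3-/- mice lie above 0, and all genotype intervals include 0.

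Genotype made no difference that passed the test on ND. Of the 7 genes 0 were called (0% of all genes) and none had an unadjusted p under 0.05 (4.71% of all genes). Gp2 is counted among the 7. Its differences from the ND-fed Tas1r3+/+ group, by diet or genotype, are a description, as it passed the filter through that group. The median log2 difference of Tas1r3-/- minus Tas1r3+/+ was -0.62 (all genes 0.01), with 2 genes above 0 (51.4% of all genes) and 5 below. Cxcr5 had the largest, -1.57 ± 0.76 (SE), with an adjusted p of 0.895 by limma, and its groups did not overlap, where 13.3% of all genes were lower in Tas1r3-/- mice without overlap. The two-sided exact permutation test gave p = 0.133 (smallest possible 0.067). Pooled Cxcr5 reads were 245 in 4 Tas1r3+/+ and 2 in 2 Tas1r3-/- libraries, a ratio of 56.2 (95% interval 15.4 to 466, counting error only). Without ND-fed female 1 it was 20.3 (95% interval 5.4 to 172), and the fitted difference of Cxcr5 was -0.96.

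The other differences on ND were -0.82 ± 0.68 (SE) for Fcer2a, -0.71 ± 0.71 for Ms4a1, -0.62 ± 0.40 for Gp2, -0.37 ± 0.73 for Cd79b, 0.15 ± 0.65 for Cd79a and 0.65 ± 0.65 for Cxcl13. In the absence of females among the Tas1r3-/- libraries, sex and genotype are partly confounded here. In males alone Ms4a1 differed by 0.00, Gp2 by -0.06, Fcer2a by -0.21, Cxcr5 by -0.60, Cd79b by 0.35, Cd79a by 0.80 and Cxcl13 by 1.57.

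On WD, the follicle genes of both genotypes overlapped except for Gp2. The median log2 difference was 0.05 (all genes -0.01), 0 of 7 genes were called (0.0105% of all genes) and none had an unadjusted p under 0.05 (2.63% of all genes). The 95% interval of the difference ran from -1.35 to 1.45 for Ms4a1, from -1.14 to 1.36 for Cd79a, from -1.35 to 1.44 for Cd79b, from -0.87 to 1.75 for Fcer2a, from -1.49 to 1.42 for Cxcr5 and from -1.21 to 1.27 for Cxcl13.

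Gp2 averaged 0.265 ± 0.0556 in WD-fed Tas1r3-/- mice (SD, n = 3) and 0.585 ± 0.254 in WD-fed Tas1r3+/+ mice (SD, n = 4). The groups did not overlap, where 1.3% of all genes were lower in Tas1r3-/- mice without overlap. The fitted difference was -0.48 ± 0.36 (SE), with an adjusted p of 1 by limma and a two-sided exact permutation p of 0.0857 (smallest possible 0.029). The Tas1r3-/- libraries held 3.6 to 6.8 implied reads of Gp2, close to the level of 3 reads.

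The change with diet was not shown to differ between genotypes. The interaction terms of the 7 genes, on the log2 scale, ran from -0.62 for Cxcl13 to 1.53 for Cxcr5, with a median of 0.41 (all genes -0.01). No gene was called (0% of all genes) or had an unadjusted p under 0.05 (1.43% of all genes), and each adjusted p was 1.00 by limma. The 4 comparisons share groups with each other, so that their values for 1 gene are not independent.

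Related genes did not pass the test either. From 7 lists of B cell, germinal centre, chemokine, stromal, follicular T helper and M cell genes, 53 of 56 genes had values, 43 were tested, and 0 were called in any of the 5 comparisons. In Tas1r3+/+ mice 34 of the 43 were fitted higher on WD (52% of all genes), none with an unadjusted p under 0.05 (6.92% of all genes), and 3 were lower with one (8.59% of all genes). These were Blnk (-0.47, adjusted p = 0.244), Ltbr (-0.49, adjusted p = 0.174), the lymphotoxin beta receptor, and Pglyrp1 (-0.89, adjusted p = 0.158), a peptidoglycan recognition protein, all by limma. In Tas1r3-/- mice 33 of the 43 were fitted higher on WD (50.4% of all genes), and all 14 tested B cell surface genes were, with a median of 0.68. Between genotypes, 14 of the 43 were higher in Tas1r3-/- mice on ND (51.4% of all genes) and 22 on WD (47.6% of all genes).

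Of the plasma cell and T cell markers, 2 of 8 and 2 of 6 had an unadjusted p under 0.05 for diet in Tas1r3+/+ mice, all higher on WD (6.92% of all genes), and none was called. All 6 T cell markers were fitted higher, as were 5 plasma cell markers, while Sdc1 (-0.55), Prdm1 (-0.18) and Xbp1 (-0.16) were fitted lower. Jchain, the joining chain of IgA, had a log2 difference of 1.65 (adjusted p = 0.149 by limma), and Trac, the T cell receptor alpha constant gene, one of 1.85 (adjusted p = 0.138 by limma). Summed T cell markers ranged from 6.89 to 21.2 scaled RPKM on ND and from 14.2 to 49.7 on WD in this genotype, and summed plasma cell markers from 1912 to 5131 and from 3539 to 7755. Of 6 ileal epithelial markers 5 were fitted lower on WD, with a median log2 difference of -0.53, and their sums were 7166 to 11307 on ND and 4133 to 14988 on WD. All 4 adipocyte markers were fitted lower, with a median of -1.48, of which Plin1, a lipid droplet protein (-2.67, adjusted p = 0.158 by limma), and Adipoq, adiponectin (-2.07, adjusted p = 0.311 by limma), had an unadjusted p under 0.05 (8.59% of all genes, lower). Their sums were 24.5 to 162 on ND and 28 to 122 on WD. Of 4 macrophage markers 3 were fitted higher, with a median of 0.42, and Cd68 had an unadjusted p under 0.05 (0.64, adjusted p = 0.18 by limma). The part of tissue composition in the follicle gene values was not tested.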

How the data were processed

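Per the labels, total RNA of snap-frozen ileum was enriched for mRNA, depleted of rRNA and made into Ion Total-RNA libraries. The authors used Partek Flow, with STAR 2.5.3a for mapping to GRCm38 (mm10) and Ensembl release 91 for the transcripts. The deposited values are RPKM per transcript, made by the authors from reads, transcript length and a library total (column sums 817011 to 819992 on ND and 542371 to 685274 on WD). Genes were matched to GENCODE M21. The 8 genes, the lists and the tests were chosen with earlier results of these data known. Genes named are the 8, up to 4 of each list by mean RPKM, and those most like the 8 among the leading 10. Some genes of these sets are not reported here. Ltb and Prdm1 were named after their values were seen.

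Gene values are sums over transcripts of the 13 libraries. For low values the RPKM of 1 read was derived from the constant step in each library, and 86.5% to 87.8% of values were whole within 0.02 reads. Implied reads serve for depth and counting error only. TMM-type scaling trimmed 30% of the log ratios and 5% of the levels, genes with at least 1 deposited RPKM in at least 2 libraries were kept, and limma 3.58.1 (R 4.3.3) fitted log2(scaled RPKM + 0.5) with 4 groups in 1 model. Single genes had two-sided exact permutation tests, and correlations 100000 permutations. Since the labels do not say that libraries are separate litters, p-values measure the spread between these mice. In simulated data for the diet comparison in Tas1r3+/+ mice, 77 of 200 genes shifted by 1.5 (log2) and 182 of 200 shifted by 3 were recovered. The shifted genes were drawn from all 19042 tested, whose median within-group SD was 0.402, against 0.888 for the tested follicle genes. These rates therefore do not apply to the follicle genes. Alternatives changed the scaling, pseudocount, filter, columns, sex term, replicate block and each library.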

Additional observations from a re-analysis of the deposited data

Results flagged for a closer look

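The 8 genes in the 2 Tas1r3+/+ groups gave 16 sets of 4 scaled RPKM values, not on the log scale. In 6 of these sets, 1 library stood apart from the others of its group. The rate of about 1 in 20 by chance holds for independent, normally distributed values, so it does not apply to this count. The measure is the gap to the nearest library divided by the range of the group. For ND-fed Tas1r3+/+ female 1 it was 0.839 for Ms4a1, 0.906 for Cd79a, 0.885 for Cr2 and 0.877 for Fcer2a. For WD-fed Tas1r3+/+ female 2 it was 0.851 for Ms4a1 and 0.956 for Cd79b. The 6 flags come from 2 libraries and from genes that vary together, so they are not independent of each other. No cause was tested.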

How the results depend on the processing

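No follicle gene was called in any comparison under any alternative that kept the adjusted threshold. The number of follicle genes at an unadjusted p under 0.05 was 1 for diet in Tas1r3+/+ mice (Cxcl13), 3 for diet in Tas1r3-/- mice and 0 between genotypes. For diet in Tas1r3+/+ mice it was 0 without scaling and 2 in males only, with sex as a covariate or without WD-fed female 1. It was 4 without ND-fed female 1, but no test is read from that fit, as the library was left out for being high. For diet in Tas1r3-/- mice it was 1 (Ms4a1) without scaling or with a pseudocount of 1, 2 with sex as a covariate, with the replicate block or without any 1 of 4 Tas1r3+/+ libraries, and 0 without either ND-fed Tas1r3-/- male, WD-fed Tas1r3-/- male 1 or the WD-fed Tas1r3-/- female. Between genotypes on ND, Cxcr5 was added without scaling, with a pseudocount of 0.1 and without ND-fed Tas1r3+/+ male 1 or WD-fed Tas1r3-/- male 2. Cxcr5 and Gp2 were added with all 16 columns or without ND-fed Tas1r3+/+ male 2, and Cxcl13 in males only. For Gp2 no test is read, since it passed the filter through females of the ND-fed Tas1r3+/+ group alone. With all 16 columns the interaction term of Cxcr5 also had an unadjusted p under 0.05. That fit counts the ND-fed Tas1r3-/- female columns, which are weighted means of the males, as further mice. No test is read from it. With a mean RPKM of at least 5, 2 follicle genes were tested. The median within-group SD was 0.888 and fell to 0.678 without ND-fed Tas1r3+/+ female 1. Of the 28 log2 differences, 19 kept their sign under all alternatives and 9 did not, in 36 of 736 refits. For diet in Tas1r3+/+ mice, Gp2 became 0.01 with upper quartile scaling, 0.09 with a pseudocount of 0.1 and 0.63 in males only, and Cxcr5 became -0.01 without scaling. Without scaling, Cd79a between genotypes on ND became -0.01, and on WD Cd79b became -0.06 and Cxcl13 -0.07. With all 16 columns as labelled, Cxcl13 between genotypes on WD became -0.04 and Cxcr5 0.17. Cxcr5 on WD became 0.05 with 1 female column alone, 0.19 with sex as a covariate and 0.02 in males only, and Cd79b on ND became 0.35 in males only. Leaving out 1 library at a time moved Cd79a from -0.18 to 0.78 on ND and from -0.31 to 0.51 on WD, Cd79b from -0.88 to 0.27 on ND and from -0.41 to 0.53 on WD, Cxcl13 from -0.46 to 0.38, Cxcr5 from -0.44 to 0.56 and Ms4a1 from -0.19 to 0.62 on WD between genotypes, and for diet in Tas1r3+/+ mice Cxcr5 from -0.03 to 0.94 and Gp2 from -0.27 to 0.25. With 1 ND-fed Tas1r3-/- library left out, the lone one is assumed to vary like the other groups. The fitted difference of Cxcr5 with diet in Tas1r3-/- mice was 1.30 with a pseudocount of 1 and 3.38 with 0.1. The adjusted p by limma ranged over alternatives from 0.0931 to 0.390 for Cxcl13 with diet in Tas1r3+/+ mice and from 0.0608 to 1.00 for Ms4a1 with diet in Tas1r3-/- mice. The cause of these changes was not tested.

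Replicate numbers were not used to pair the samples in the main fit. The correlation of deviations lay between -0.15 and 0.568 over 14 same-numbered pairs, and 7 exceeded 0.1. It lay between -0.632 and 0.633 over the pairs with different numbers. These overlapping ranges cannot decide whether the numbers pair samples. A fit with the replicate block called 0 follicle genes in each comparison and gave 0.19 for Cxcr5 between genotypes on WD. Genes with a few reads, Cr2, Gp2 and Cxcr5, are limited by depth.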
